A study of Mus musculus with 32 samples.

Results

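The renin-angiotensin-aldosterone system was followed in mouse kidney cortex through 8 genes, taken by symbol from a table of RNA-Seq counts for 32544 genes: *Ren1*, *Agt*, *Ace*, *Agtr1a*, *Mme*, *Enpep*, *Nr3c2* and *Hsd11b2*. The cortex came from 32 mice of 25 weeks on the C57BL/6J background that carried the *Col4a3*tm1Dec allele, which inactivates a chain of the collagen IV network of the glomerular basement membrane. Alport mice were Col4a3-/-, and the control genotype was Col4a3+/-, so every control mouse also carried 1 mutant allele. Male and female mice of each genotype received vehicle or nicotinamide riboside (NR), a precursor of NAD+ given in the diet, which made 8 groups of 4 mice. The comparisons ask how these genes differ between Alport and control mice, whether NR changes them, and whether the sexes differ.

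Renin, released by granular cells of the juxtaglomerular apparatus, cleaves angiotensinogen to angiotensin I, and angiotensin-converting enzyme cleaves this to angiotensin II, which acts mainly on the type 1 receptor to constrict vessels and retain sodium. Aldosterone, made in the adrenal cortex in response to angiotensin II, binds the mineralocorticoid receptor of the distal nephron and raises sodium uptake through the epithelial sodium channel. The kidney holds a local form of this system, in which the proximal tubule makes angiotensinogen and carries on its brush border several of the peptidases that form and destroy angiotensin peptides.

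Libraries held 16621944–27778797 counts (median, 22071395), and values are given as CPM, the counts scaled to library size with trimmed mean of M values (TMM) factors. All 8 genes were detected in every mouse, from 325 to 8970 counts, and all 8 passed the low-count filter of every comparison. Per kilobase of merged exons, the median level over the 32 mice was highest for *Hsd11b2* (107 CPM per kb), followed by *Ren1* (70.0), *Agt* (34.7), *Enpep* (30.2), *Ace* (25.5), *Mme* (14.3), *Agtr1a* (12.8) and *Nr3c2* (3.48). Ranges over mice overlapped between all neighbours in this order except the last pair, where *Agtr1a* was at least 9.42 and *Nr3c2* at most 5.21 CPM per kb.

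The labels were checked first. *Ddx3y*, on the Y chromosome, was 48.0–85.8 CPM in males and 0.356–1.42 CPM in females. *Col4a3* was 48.8–83.2 CPM in the 16 Alport mice and 105–201 CPM in the 12 control mice outside the male NR group, where it was 59.4, 94.1, 75.2 and 159.6 CPM. Male control NR mice 1 and 3 therefore had *Col4a3* in the Alport range, and mouse 2 lay between the Alport mice and the other control groups. The log2 ratio of *Col4a3* to its partner chain *Col4a4* was −1.77 to −1.28 in all Alport mice and −0.90 to −0.28 in all 16 control mice. It was −0.67 to −0.43 in the 12 control mice outside the male NR group, and −0.90, −0.77, −0.84 and −0.28 in male control NR mice 1 to 4. Where male control NR mice enter a comparison, member values without mice 1 and 3 are given for the main results, and mouse 2 was kept. Markers of the tissue were abundant, with 16 proximal tubule markers summing to 5961–27600 CPM and 12 distal nephron and collecting duct markers to 2980–7738 CPM, whereas 8 adrenal cortex markers summed to 3.12–7.22 CPM and aldosterone synthase, *Cyp11b2*, had 0 counts in all 32 mice.

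In vehicle-treated mice, 7 of the 8 genes differed between Alport and control males and 6 of 8 between Alport and control females, at an adjusted p under 0.05 in edgeR's quasi-likelihood test with Benjamini-Hochberg adjustment. These counts stand against a background of 51.0% of 15286 genes tested in males and 45.8% of 15709 in females, so a call was common among all genes tested. *Agt* was the only one of the 8 that was higher in Alport mice, in both sexes, and *Ren1*, *Agtr1a*, *Mme* and *Nr3c2* were lower in both. The median log2 fold change (log2FC) of the 8 genes was −0.31 in males and −0.40 in females, beside −0.001 over all genes tested in each sex. TMM scaling itself centres the bulk of genes near 0, so the value over all genes is not an independent reference. The groups did not overlap for 4 genes in males and 4 in females, beside 50.6% and 44.4% of all genes. The TMM factors themselves differed by genotype, at 0.83–0.86 in control and 1.06–1.22 in Alport males. In females they were 0.95–0.998 and 1.12–1.25. In males the raw counts of *Agtr1a*, *Enpep*, *Nr3c2* and *Hsd11b2* overlapped between genotypes, so the separation of these 4 genes rests on the factors. Scaling by library size alone was not tested.

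**Figure D1:**
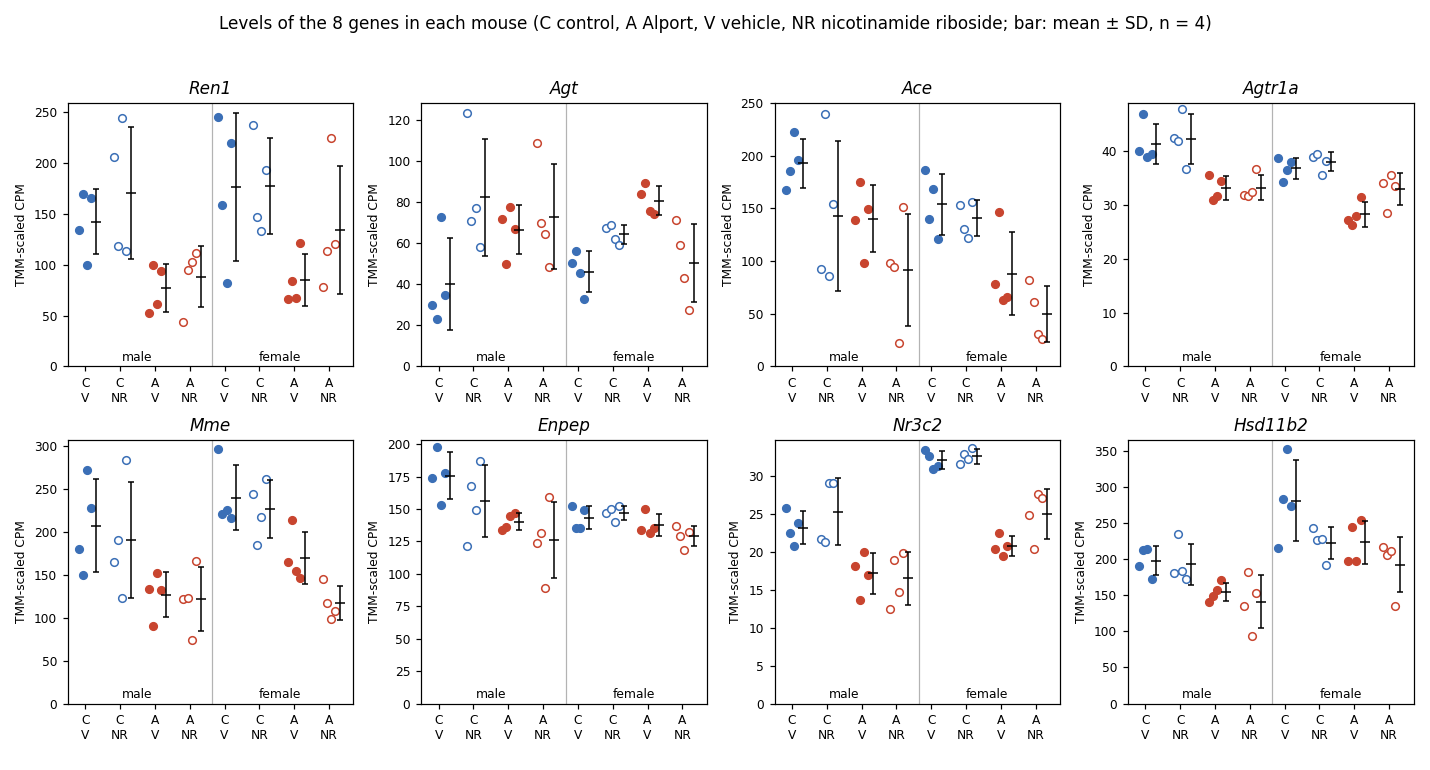
TMM-scaled CPM (vertical axes, from 0) of the 8 genes in each of the 32 mice, by sex, genotype (blue, control; red, Alport) and treatment (filled, vehicle; open, NR), with the mean ± SD of each group of 4. Mean *Agt* is higher in Alport than in control mice on vehicle in each sex, *Nr3c2* is lower in Alport than in control mice throughout, and *Ace* in the male NR groups spreads from 22.4 to 239 CPM.

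On vehicle, the upper end of the cascade moved in opposite directions, with renin mRNA lower and angiotensinogen mRNA higher in Alport mice. *Ren1* (chr1:133350674-133360320, GRCm38) encodes renin. In vehicle-treated males it was 134, 169, 100.1 and 166 CPM in control mice and 52.5, 100.2, 61.3 and 93.4 CPM in Alport mice. Only Alport mouse 2 reached the lowest control mouse (by a narrow margin), and the log2FC was −0.81 ± 0.21 (SE, adjusted p = 0.00779). In females *Ren1* was 245, 158, 82.3 and 220.1 CPM in control mice and 66.3, 84.2, 67.6 and 121 CPM in Alport mice. Control mouse 3 lay among the Alport mice, and the log2FC was −1.02 ± 0.30 (adjusted p = 0.0186). The male call held with any 1 mouse left out, whereas the female call was lost without control mouse 1 or 4 or Alport mouse 1 or 3 (adjusted p = 0.0531–0.0583). Since these are whole-cortex samples, fewer cells of a type and less RNA per cell cannot be told apart.

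*Agt* (chr8:124556587-124569706) encodes angiotensinogen, the substrate of renin. It was 29.9, 23.0, 72.8 and 35.0 CPM in vehicle-treated control males and 71.9, 50.0, 77.8 and 66.8 CPM in Alport males. Control mouse 3 stood with the Alport mice and the other 3 control mice were below all of them (log2FC, 0.82 ± 0.29, adjusted p = 0.0329). Without that mouse the log2FC was 1.27 (adjusted p = 0.00018), and without control mouse 1, 2 or 4 or Alport mouse 1, 3 or 4 the male call was lost (adjusted p = 0.0517–0.0934), nor did DESeq2 call it (0.81, adjusted p = 0.0693). In females the values were 50.3, 56.3, 45.4 and 33.0 CPM in control and 83.9, 89.2, 75.8 and 74.2 CPM in Alport mice, with no overlap. The female log2FC of 0.84 ± 0.14 (adjusted p = 0.000706) kept its call with any 1 mouse left out.

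Because *Ren1* and *Agt* moved oppositely on vehicle, their promoters are set side by side, as the 250 bases before the RefSeq start of each gene. The windows (GRCm38.p6, chr1:133350424-133350673, plus strand, and chr8:124569707-124569956, minus strand) are written 5′ to 3′ with the TATAAA motif in capitals.
Ren1: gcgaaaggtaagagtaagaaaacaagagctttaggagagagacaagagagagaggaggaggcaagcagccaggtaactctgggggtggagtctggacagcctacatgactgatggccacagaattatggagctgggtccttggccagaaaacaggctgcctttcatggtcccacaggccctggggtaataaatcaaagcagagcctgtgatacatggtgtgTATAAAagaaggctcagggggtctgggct
Agt: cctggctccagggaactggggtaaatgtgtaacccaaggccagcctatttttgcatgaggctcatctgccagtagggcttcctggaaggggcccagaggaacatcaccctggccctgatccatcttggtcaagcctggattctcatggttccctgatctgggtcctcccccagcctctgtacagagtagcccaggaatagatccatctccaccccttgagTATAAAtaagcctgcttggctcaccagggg
Each window held 1 TATAAA on the gene's own strand, at bases 29 to 24 before the start in *Ren1* and 30 to 25 in *Agt*. The 6 member genes with an entry had 9 windows in all, counted here singly as for all promoters. Searched on both strands, TATAAA was in 4 of these 9 windows (of *Ren1*, *Agt*, *Ace* and *Enpep*), and in 12.4% of all 32851 promoters. CCAAT was in 5 of the 9 windows, of *Ace*, *Enpep*, *Mme* and *Nr3c2* (33.8% of all promoters), but not in either window above. AGGTCA, a half-site of nuclear receptors, was in 1 of the 9 windows, of *Ace* (14.0%). TGTTCT, a half-site of steroid receptors that include the mineralocorticoid receptor, was in 0 of the 9 (16.1%). These matches describe the letters of the windows and not binding. *Agtr1a* and *Hsd11b2* had no entry.

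*Ace* (chr11:105967948-105989964) encodes angiotensin-converting enzyme, which sits on endothelium and on the proximal tubule brush border. In vehicle-treated males it was 167, 185, 222 and 196 CPM in control and 138, 175, 98.2 and 149 CPM in Alport mice. Alport mouse 2 overlapped the controls, and the log2FC of −0.37 ± 0.15 missed the threshold (adjusted p = 0.0568). It passed without control mouse 1 or Alport mouse 2 (adjusted p = 0.0157–0.0477), with DESeq2 (0.0348) and with no low-count filter (0.0464). In females *Ace* was 186, 140.2, 168 and 121 CPM in control and 78.2, 146, 62.7 and 65.5 CPM in Alport mice. Alport mouse 2 again stood with the controls, the other 3 were below all of them, and *Ace* fell with a log2FC of −0.76 ± 0.25 (adjusted p = 0.0308). The female call was lost without control mouse 1 or 3 or Alport mouse 1, 3 or 4 (adjusted p = 0.0656–0.0835). It was also lost in a single edgeR fit of all 32 mice (adjusted p = 0.109).

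*Agtr1a* (chr13:30336356-30382867) encodes the main type 1 angiotensin II receptor of the kidney. It was 40.1, 46.9, 39.0 and 39.5 CPM in vehicle-treated control males and 35.5, 30.9, 31.7 and 34.5 CPM in Alport males, with every Alport mouse below every control mouse. In females it was 38.8, 34.3, 36.6 and 38.0 CPM in control and 27.3, 26.2, 28.0 and 31.6 CPM in Alport mice, again without overlap. After TMM scaling, *Agtr1a* fell by 0.23 ± 0.08 on the log2 scale in males (adjusted p = 0.0350) and by 0.35 ± 0.07 in females (adjusted p = 0.00332). Its raw counts in males were 755–1098 in control and 762–877 in Alport mice. Their libraries held 21833587–27433134 and 21451535–21763727 counts, so the male decrease depends on the TMM factors. The decrease was small beside that of *Ren1*, and the male call was lost without control mouse 2 or Alport mouse 2 or 3 (adjusted p = 0.0820–0.0978). The second type 1 receptor gene, *Agtr1b*, had 104 counts and the type 2 receptor gene, *Agtr2*, 38 counts over all 32 mice, too few to test.

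*Mme* and *Enpep* encode brush border peptidases that act on angiotensin peptides. *Mme* (chr3:63295211-63383713) encodes neprilysin, which cleaves angiotensin I to angiotensin-(1–7) and degrades natriuretic peptides. It was 179.9, 149.6, 272 and 228 CPM in vehicle-treated control males and 133, 90.2, 152 and 132 CPM in Alport males. Alport mouse 3 was just above the lowest control mouse, and *Mme* fell by 0.62 ± 0.19 on the log2 scale (adjusted p = 0.0157), a call that held with any 1 mouse left out. In females the values were 296, 221, 226 and 217 CPM in control and 165, 214, 155 and 146 CPM in Alport mice. No Alport female reached a control female, and the log2FC was −0.46 ± 0.14 (adjusted p = 0.0188). This call was lost without control mouse 1 or Alport mouse 3 or 4 (adjusted p = 0.0537–0.0570) and in the fit of all 32 mice (0.0865).

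*Enpep* (chr3:129269177-129332749) encodes glutamyl aminopeptidase, which converts angiotensin II to angiotensin III. In vehicle-treated males it was 174, 198, 153 and 178 CPM in control and 134, 136, 144 and 147 CPM in Alport mice, with no overlap (log2FC, −0.24 ± 0.09, adjusted p = 0.0358). The male call was lost without control mouse 1, 2 or 4 or Alport mouse 1 or 2 (adjusted p = 0.0637–0.104). In females the 4 control mice were at 136–152 CPM and the 4 Alport mice at 132–150.3 CPM, and the log2FC was −0.02 ± 0.07 (adjusted p = 0.862). *Enpep* was the member with the smallest Alport difference in females, but the test of the sex-by-genotype difference did not call it (0.19 ± 0.11, adjusted p = 0.564).

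At the aldosterone end, *Nr3c2* (chr8:76898083-77245012) encodes the mineralocorticoid receptor. It was 25.8, 22.5, 20.7 and 23.8 CPM in vehicle-treated control males and 18.2, 13.6, 19.97 and 16.99 CPM in Alport males. In females it was 33.5, 32.6, 30.9 and 31.4 CPM in control and 20.4, 22.6, 19.4 and 20.7 CPM in Alport mice. The genotypes did not overlap in either sex, and in females the gap between them was wider than the range within either group. *Nr3c2* fell by 0.35 ± 0.12 on the log2 scale in males (adjusted p = 0.0320) and by 0.59 ± 0.07 in females (adjusted p = 0.000108), the smallest adjusted p of any member. The female call held with any 1 mouse left out. The male call was lost without control mouse 1 or 4 or Alport mouse 2 or 4 (adjusted p = 0.0578–0.0897).

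*Hsd11b2* (chr8:105518746-105523988) encodes the enzyme that inactivates corticosterone in aldosterone target cells and so keeps the receptor free for aldosterone. In vehicle-treated males it was 191, 212, 214 and 173 CPM in control and 140.3, 149, 157 and 170.5 CPM in Alport mice. The groups did not overlap (log2FC, −0.27 ± 0.09, adjusted p = 0.0258). The call was lost without control mouse 2 or 3 or Alport mouse 1 or 2 (adjusted p = 0.0625–0.0844) and in the fit of all 32 mice (0.0733). In females the control mice were at 216, 282, 352 and 273 CPM and the Alport mice at 197, 245, 198 and 253 CPM. Control mouse 1 lay within the Alport range, and the female difference of −0.29 ± 0.15 was not called (adjusted p = 0.133) except without that mouse (adjusted p = 0.0358). For none of the 8 genes did the Alport effect differ between the sexes by edgeR's interaction test in the 16 vehicle-treated mice, where 0.532% of all genes were called. No member had an unadjusted p under 0.05, beside 12.0% of all genes, and DESeq2 and limma-voom also called 0 members.

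Cell markers moved with genotype in the same samples. Their counts stand beside 26.8% of all genes called higher and 24.2% lower in males, and 24.0% and 21.8% in females. Of 16 proximal tubule markers, 15 were lower in Alport males and 15 in Alport females, where *Slc7a13* was higher. Their summed level was 25690–27600 CPM in vehicle-treated control males against 9278–14330 CPM in Alport males, and 20380–23370 against 8691–13920 CPM in females. Podocyte markers were higher for 9 of 10 in both sexes (413–491 against 799–1210 CPM summed in males; 613–659 against 889–1039 CPM in females), and mural and fibroblast markers for 10 of 11 (252–265 against 1082–1815 CPM in males; 316–399 against 972–1459 CPM in females). Immune markers were higher for 10 of 10 tested in males and 9 of 10 in females. Endothelial markers were higher for 9 of 10 in males (458–509 against 620–779.5 CPM summed) and for 6 of 10 in females (515–669.7 against 637–724 CPM, overlapping). Of the 12 distal nephron markers, 6 were lower in each sex, and their summed level overlapped between genotypes (3876–5331 against 3098–4322 CPM in males; 4888–6001 against 4133–6911 CPM in females). The part of these shifts in the results for *Agt*, *Ace*, *Mme*, *Enpep*, *Nr3c2* and *Hsd11b2*, genes of the tubule, or for *Ren1* and *Agtr1a* was not tested.

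Among other genes of angiotensin processing, 12 of 18 listed were tested in each sex, of which 2 were higher and 5 lower in Alport males, and 3 were higher and 3 lower in Alport females (over all genes, 26.8% higher and 24.2% lower in males, 24.0% and 21.8% in females). Aminopeptidase N, *Anpep*, which acts on angiotensin III, fell by 0.41 ± 0.12 on the log2 scale in males and by 0.48 ± 0.11 in females (adjusted p = 0.0107 and 0.00542). Both calls were lost in the fit of all 32 mice (adjusted p = 0.083 and 0.086). The (pro)renin receptor gene *Atp6ap2* fell by 0.28 ± 0.07 and 0.39 ± 0.08 (adjusted p = 0.00531 and 0.00200).

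The lysosomal proteases *Ctsb* and *Ctsd*, which can process prorenin or angiotensinogen, were higher in Alport mice of both sexes without overlap. *Ctsb* rose by 0.32 ± 0.09 in males and 0.26 ± 0.08 in females, and *Ctsd* by 0.28 ± 0.08 and 0.48 ± 0.11 (adjusted p = 0.00458–0.0184 for the 4 tests). The call of *Ctsd* in males was lost without control mouse 1 or 2 (adjusted p = 0.0543–0.0545), and that of *Ctsb* in females without control mouse 2 or Alport mouse 4 (adjusted p = 0.0620–0.0657). In the fit of all 32 mice both of these were lost (adjusted p = 0.266 and 0.0637). *Prcp* (−0.51 ± 0.10, adjusted p = 0.00116) and *Nln* (−0.26 ± 0.08, adjusted p = 0.0152) fell in males, where in females the values were −0.17 ± 0.08 and −0.12 ± 0.06 (adjusted p = 0.118 and 0.119). *Prep* rose in females by 0.20 ± 0.06 (adjusted p = 0.0238), beside 0.13 ± 0.09 in males (adjusted p = 0.254), a call lost without control mouse 2 or Alport mouse 2 or 4 (adjusted p = 0.0539–0.0794). *Prcp* in females passed without Alport mouse 4 (−0.24, adjusted p = 0.0260). *Lnpep*, *Thop1*, *Agtrap* and the angiotensin-(1–7) receptor gene *Mas1* were not called in either sex. *Mas1* had 400 counts over the 32 mice, *Cma1*, *Cpa3* and *Mrgprd* had 7, 18 and 2, and *Dpp3* was not used here.

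Of the genes of the juxtaglomerular apparatus and macula densa, 8 of 11 tested were higher and 1 lower in Alport males, and 4 higher and 1 lower in females, with a median log2FC of 0.72 and 0.30 (over all genes, again 26.8% higher and 24.2% lower in males, 24.0% and 21.8% in females). The gene called lower was *Adrb1* in both sexes, and those called higher in females were *Foxd1*, *Ptgs2*, *Ptger4* and *Rbpj*, of which all but *Ptgs2* are named after their values were seen. *Ptgs2*, the inducible cyclooxygenase of the macula densa, was 0.252 ± 0.179 CPM in control and 1.19 ± 0.588 CPM in Alport males, and 0.312 ± 0.179 and 1.17 ± 0.679 CPM in females. These levels are low, but the groups did not overlap and *Ptgs2* rose by 2.27 ± 0.49 and 1.93 ± 0.56 on the log2 scale (adjusted p = 0.00231 and 0.0157). *Gja5*, the connexin of renin cells, rose in males (0.83 ± 0.17, adjusted p = 0.00182), and its value in females was 0.30 ± 0.13 (adjusted p = 0.0807, and 0.0349 without Alport mouse 2). *Akr1b7*, another gene of renin cells, and *Nos1*, the macula densa nitric oxide synthase, were not called by edgeR in either sex (adjusted p = 0.0529–0.593). *Nos1* passed as lower in females with DESeq2 (−0.67, adjusted p = 0.0328), with limma-voom (−0.68, adjusted p = 0.0471) and, by edgeR, without control mouse 3 or Alport mouse 4 (adjusted p = 0.0344–0.0363). *Ren1* was thus lower in mice in which several genes of this list were higher, though *Adrb1* was also lower and *Akr1b7* and *Nos1* were not called by edgeR. Mural and fibroblast markers and podocyte markers were also higher in these mice, and their part was not tested.

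Downstream of aldosterone, 13 of 17 genes of the responsive distal nephron were lower in Alport males and 11 of 17 in females, and none was higher (median log2FC, −0.49 and −0.34), where 24.2% and 21.8% of all genes were lower. The 3 subunits of the epithelial sodium channel fell in both sexes. *Scnn1a* was 138 ± 20.7 CPM in control and 79.8 ± 6.65 CPM in Alport males and 203 ± 17.4 and 118 ± 19.0 CPM in females (log2FC, −0.71 ± 0.11 and −0.75 ± 0.12, adjusted p = 0.000198 and 0.000565). *Scnn1b* fell by 0.23 ± 0.07 and 0.31 ± 0.10 (adjusted p = 0.0107 and 0.0273) and *Scnn1g* by 0.33 ± 0.10 and 0.32 ± 0.11 (adjusted p = 0.0186 and 0.0373). The early aldosterone target *Sgk1* was not called (0.12 ± 0.20 in males and −0.22 ± 0.31 in females, adjusted p = 0.647 and 0.588), and *Nedd4l*, the ubiquitin ligase that removes the channel, fell in females by 0.32 ± 0.08 (adjusted p = 0.00753) beside −0.23 ± 0.10 in males (adjusted p = 0.0813, 0.0177 without Alport mouse 4 and 0.00522 in a single edgeR fit of all 32 mice). The calls of *Scnn1b* in females and of *Scnn1g* in both sexes were not firm. In females *Scnn1b* was lost without control mouse 2, 3 or 4 (adjusted p = 0.0512–0.0622) and *Scnn1g* without control mouse 1, 2 or 3 or Alport mouse 1, 3 or 4 (0.0521–0.0969), and in males *Scnn1g* was lost without control mouse 1 or Alport mouse 4 (0.0501–0.0528).

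Of the genes of corticosteroid synthesis and metabolism, 5 of 10 could be tested in males and 6 in females. In males 0 were higher and 1 lower, and in females 1 was higher and 1 lower (over all genes, 26.8% higher and 24.2% lower in males, 24.0% and 21.8% in females). These were *Akr1d1*, lower in both sexes, and *H6pd*, higher in females, named after their values were seen. *Hsd11b1*, which regenerates corticosterone, and the glucocorticoid receptor gene *Nr3c1* were not called by edgeR in either sex (adjusted p = 0.0503–0.423). *Nr3c1* passed as lower in females with DESeq2 (−0.23, adjusted p = 0.0347) and with RLE size factors (−0.23, adjusted p = 0.0468). It also passed without male control mouse 3 (adjusted p = 0.0471) and without female control mouse 4 or Alport mouse 3 (0.0256–0.0413), and *Cyp11b1* had 96 counts over all 32 mice.

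**Figure D2:**
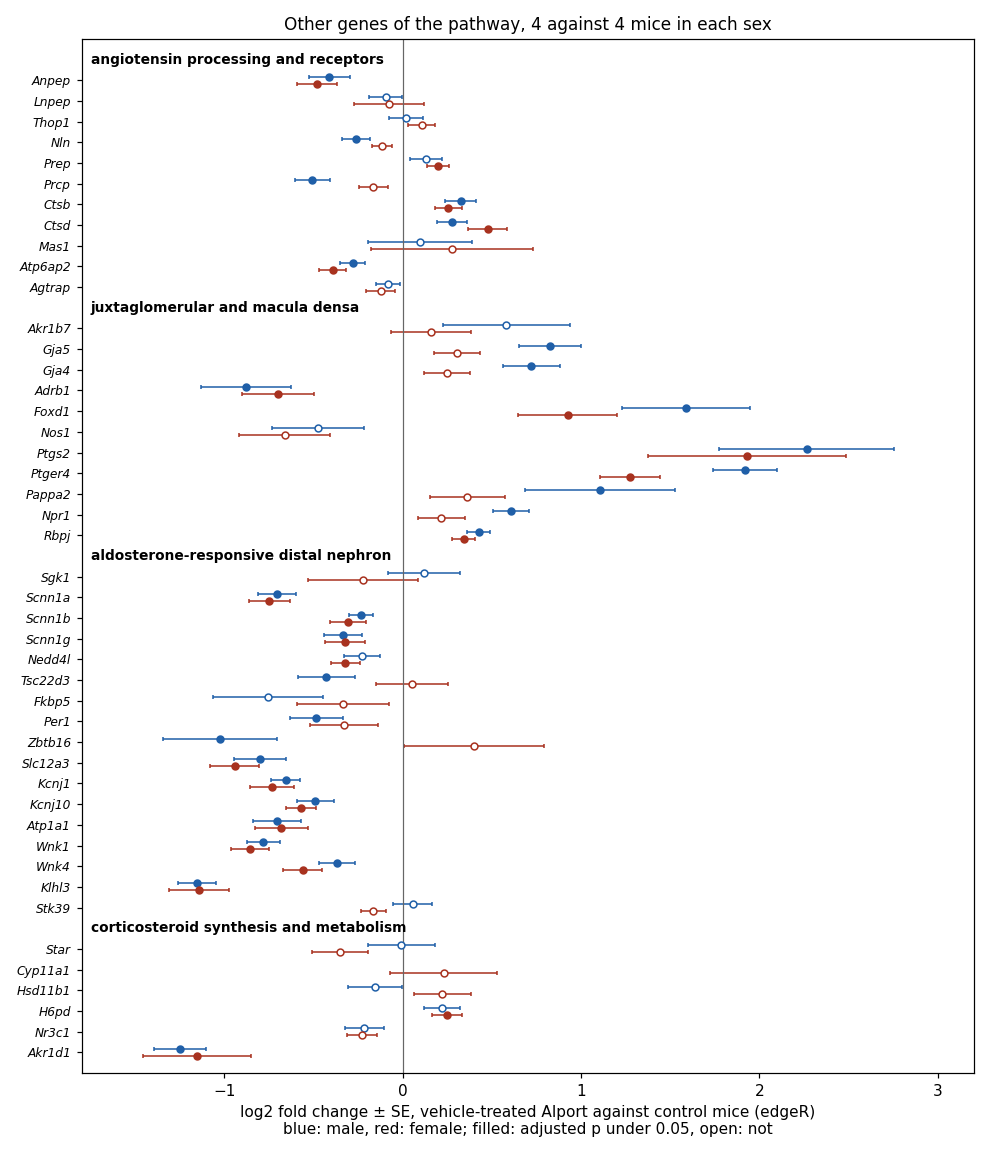
Log2FC ± SE (horizontal axis) of other listed pathway genes, vehicle-treated Alport against control mice, 4 against 4 in males (blue) and in females (red), filled where the adjusted p was under 0.05. The channel subunits lie left of 0 in both sexes, and *Ptgs2* is the gene farthest to the right.

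The same question was asked in mice that received NR, which are other mice than those above. In males 0 of the 8 genes were called by edgeR, as for 0.0% of 14884 genes, although 3 of the 8 and 3214 of all genes had an unadjusted p under 0.05. DESeq2 called 1 member (*Nr3c2*, −0.61, adjusted p = 0.0483) and 1381 genes, limma-voom 0 and 0, and a single edgeR fit of all 32 mice 5 members and 4565 genes. All 8 log2FC values were below 0, with a median of −0.50. In females 3 of the 8 were called, all lower, beside 27.5% of 15109 genes (14.4% higher and 13.1% lower), and the median log2FC was −0.33.

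The male NR groups were uneven from mouse to mouse. *Ace* was 92.9, 239, 85.3 and 154 CPM in male control NR mice and 98.4, 94.3, 22.4 and 151 CPM in male Alport NR mice. Control mice 1 and 3, the 2 with *Col4a3* in the Alport range, were the lowest controls for *Ace*, and the proximal tubule markers summed to 17280 and 18730 CPM in these 2 against 24480 and 24740 CPM in control mice 2 and 4. In Alport NR males the same sum was 7654, 18150, 5961 and 18170 CPM, and mouse 3, with the lowest sum, also had the lowest *Ace*. Mouse 1, with the next lowest sum, had more *Ace* (98.4 CPM) than mouse 2 (94.3 CPM). A link of *Ace* to the marker sum was not tested. The log2FC of *Ace* was −0.61 ± 0.51 (adjusted p = 0.491), and −1.06 without control mice 1 and 3 (adjusted p = 0.442).

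*Ren1* in the male NR groups was 206, 118, 244 and 114 CPM in control and 44.1, 94.8, 102 and 112 CPM in Alport mice, with no overlap but a log2FC of −0.92 ± 0.34 that was not called (adjusted p = 0.171). Here control mice 1 and 3 were the highest, and without them the log2FC was −0.36 (adjusted p = 0.630). *Agtr1a* was 42.6, 41.9, 48.0 and 36.8 CPM in control and 32.0, 31.8, 32.5 and 36.7 CPM in Alport mice. *Nr3c2* was 21.7, 21.3, 29.1 and 29.1 CPM in control and 12.5, 18.9, 14.7 and 19.9 CPM in Alport mice. For these 2 genes too, all Alport mice were below all control mice, so 3 of the 8 genes did not overlap, beside 15.0% of all genes. Their log2FC values were −0.32 ± 0.12 (adjusted p = 0.181) and −0.59 ± 0.19 (adjusted p = 0.132). Without control mice 1 and 3 they were −0.20 for *Agtr1a* and −0.57 for *Nr3c2* (adjusted p = 0.537 and 0.387), and *Mme* went from −0.61 ± 0.29 (adjusted p = 0.248) to −0.92 (adjusted p = 0.362).

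Among NR-treated females *Ace* showed the widest difference. It was 153, 131, 121 and 156 CPM in control and 82.3, 61.0, 31.1 and 26.0 CPM in Alport mice, with no overlap (log2FC, −1.45 ± 0.31, adjusted p = 0.00757). *Mme* was 244, 185, 218 and 262 CPM in control and 145, 117, 99.2 and 107 CPM in Alport mice, also without overlap (log2FC, −0.92 ± 0.14, adjusted p = 0.00152). Both calls held with any 1 mouse left out. *Nr3c2* was 31.5, 33.0, 32.2 and 33.7 CPM in control and 24.8, 20.4, 27.6 and 27.2 CPM in Alport mice (log2FC, −0.34 ± 0.10, adjusted p = 0.0300), and this call was lost without any 1 of the 4 control mice or Alport mouse 1 (adjusted p = 0.0522–0.0789).

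*Agtr1a* and *Enpep* were likewise below every control in the Alport NR females but were not called (−0.17 ± 0.09 and −0.15 ± 0.07, adjusted p = 0.168 and 0.151), so that 5 of the 8 genes did not overlap, beside 30.9% of all genes. *Hsd11b2* was at 191–242 CPM in control and 135–216 CPM in Alport mice (−0.17 ± 0.15, adjusted p = 0.407). *Ren1* was 237, 147, 133 and 193 CPM in control and 78.3, 113, 225 and 120.1 CPM in Alport mice, and Alport mouse 3 lay within the control range. Its log2FC was −0.37 ± 0.29 (adjusted p = 0.382), and −0.73 without Alport mouse 3 (adjusted p = 0.0336). *Agt*, higher in Alport mice on vehicle, had log2FC values of −0.15 ± 0.28 in NR males and −0.32 ± 0.23 in NR females (adjusted p = 0.770 and 0.336). Without male control mice 1 and 3 the male value turned to 0.21 (adjusted p = 0.744). Proximal tubule markers were lower in the Alport NR females for 14 of 16, beside 13.1% of all genes. Their summed level was 19370–22770 CPM in control and 10640–12320 CPM in Alport mice, and their part was not tested.

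**Figure D3:**
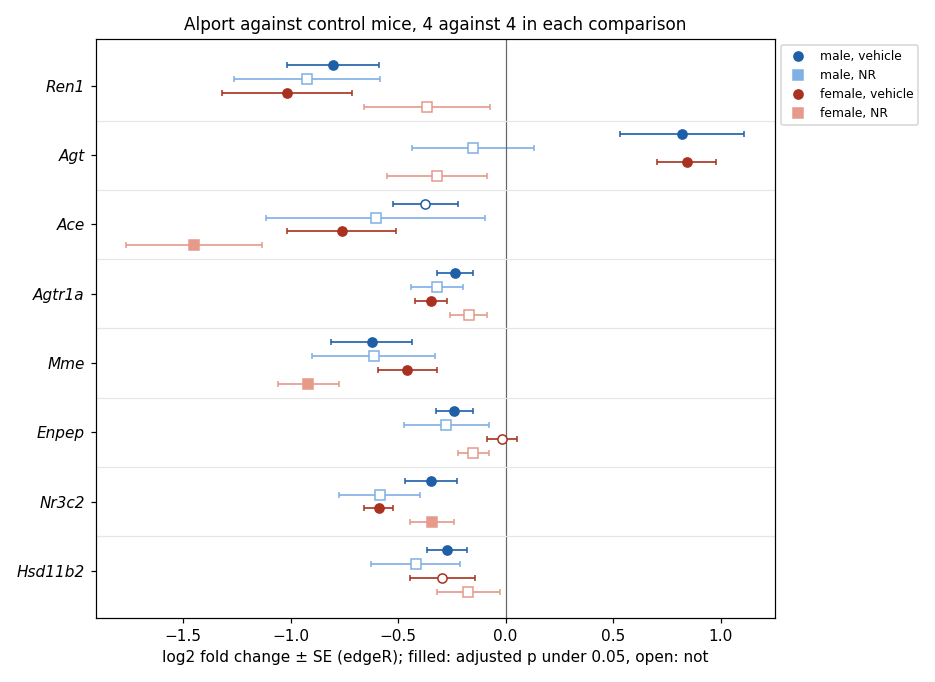
Log2FC ± SE (horizontal axis) of each of the 8 genes in Alport against control mice, 4 against 4, in males and females (blue and red) on vehicle (dark circles) and NR (light squares), filled where the adjusted p was under 0.05. *Agt* is right of 0 in the vehicle comparisons of both sexes and left of 0 in both NR comparisons, and *Ace* in NR-treated females is farthest left.

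NR was then compared with vehicle within each genotype and sex, and these comparisons share their mice with those above. In Alport mice 0 of the 8 genes were called in either sex, beside 0.0% of 15500 genes in males and 0.477% of 15712 in females. Unadjusted p was under 0.05 for 0 of the 8 in males, where 785 of all genes (5.06%) reached it, and for 4 in females, where 2627 (16.7%) did. DESeq2 called 0 members in males and 1 in females, and limma-voom 0 in each. In males the 8 log2FC values ran from −0.62 ± 0.46 (*Ace*, adjusted p = 0.939) to 0.19 ± 0.31 (*Ren1*, adjusted p = 0.956), and no gene separated the groups, beside 3.42% of all genes.

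In Alport females 2 genes separated the groups completely, beside 9.18% of all genes. *Agt* was 83.9, 89.2, 75.8 and 74.2 CPM on vehicle and 71.4, 59.0, 43.0 and 27.7 CPM on NR (log2FC, −0.68 ± 0.24, adjusted p = 0.209). *Mme* was 165, 214, 155 and 146 CPM on vehicle and 145, 117, 99.2 and 107 CPM on NR (log2FC, −0.53 ± 0.15, adjusted p = 0.153), and DESeq2 called it (adjusted p = 0.0318). *Agtr1a* (0.23 ± 0.10) and *Nr3c2* (0.28 ± 0.11) were the other genes with an unadjusted p under 0.05 (adjusted p = 0.273 and 0.267). *Ren1* was 66.3, 84.2, 67.6 and 121 CPM on vehicle and 78.3, 113, 225 and 120.1 CPM on NR, an overlapping pair with a log2FC of 0.67 ± 0.31 (adjusted p = 0.312). Summed proximal tubule markers overlapped between these groups (8691–13920 CPM on vehicle and 10640–12320 CPM on NR), and no gene of any marker list was called. Endothelial markers summed to 637–724 CPM on vehicle and 796–951 CPM on NR, without overlap. An unadjusted p under 0.05 in edgeR was reached by 6 of 10, beside 16.7% of all genes. Immune markers summed to 877–1522 CPM (median, 1291) on vehicle and 209.6–1151 CPM (median, 585) on NR. The part of these shifts was not tested.

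In control mice, *Agt* was the member with the largest NR effect in each sex. Control females had 50.3, 56.3, 45.4 and 33.0 CPM on vehicle and 67.4, 68.9, 62.2 and 59.0 CPM on NR. All NR mice were above all vehicle mice (14.7% of all genes separated the groups), and *Agt* rose with a log2FC of 0.47 ± 0.13 (adjusted p = 0.0499), the single member called in females beside 6.18% of 14951 genes. The call sat at the threshold and was lost without control vehicle mouse 1, 3 or 4 or any 1 of the 4 NR mice (adjusted p = 0.0512–0.120), and in the fit of all 32 mice (adjusted p = 0.565). Control males had 29.9, 23.0, 72.8 and 35.0 CPM on vehicle and 123, 70.7, 77.4 and 58.2 CPM on NR, where vehicle mouse 3 overlapped the NR mice (log2FC, 1.05 ± 0.34, adjusted p = 0.106).

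In control males edgeR called 0 of the 8 genes and 0 separated the groups, beside 4.53% of 14696 genes called and 13.4% separated. An unadjusted p under 0.05 was reached by 1 member, beside 23.1% of all genes, and DESeq2 and limma-voom called 0 members. *Agt* passed without vehicle mouse 3 (1.5, adjusted p = 0.0255) and in the fit of all 32 mice (adjusted p = 0.0323), and had a log2FC of 0.68 (adjusted p = 0.467) without NR mice 1 and 3. Without those 2 mice the values of *Ren1* (0.27 ± 0.26) and *Mme* (−0.12 ± 0.24) turned to −0.30 and 0.19, and no member was called. *Ace* had a log2FC of −0.42 ± 0.28 (adjusted p = 0.392), which became −0.80 without NR mouse 2 (adjusted p = 0.0434) and 0.03 without NR mice 1 and 3 (adjusted p = 0.967). In control females *Hsd11b2* was 216, 282, 352 and 273 CPM on vehicle and 242, 227, 228 and 191 CPM on NR (log2FC, −0.35 ± 0.13, adjusted p = 0.124), and passed without vehicle mouse 1 (−0.45, adjusted p = 0.0316). The other genes of the 8 in control mice lay between −0.16 and 0.27 in males and between −0.14 and 0.04 in females.

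Of the pathway genes, *Sgk1* rose with NR in control mice of both sexes. It was 48.4 ± 17.5 CPM on vehicle and 139 ± 69.3 CPM on NR in males (log2FC, 1.53 ± 0.37, adjusted p = 0.0444), and 174 ± 62.4 and 299.6 ± 53.9 CPM in females (log2FC, 0.78 ± 0.21, adjusted p = 0.0487). In both sexes the vehicle and NR mice overlapped. Neither call was firm. The male one was lost without any 1 of the 4 vehicle mice or NR mouse 1 or 3 (adjusted p = 0.0700–0.135). It was also lost without NR mice 1 and 3 together (1.35, 0.182) and with limma-voom (0.0609). The female one was lost without vehicle mouse 2, 3 or 4 or any 1 of the 4 NR mice (0.0527–0.128). It was also lost with DESeq2 (0.0614) and in the fit of all 32 mice (0.489). In Alport males *Sgk1* was 49.5 ± 5.18 CPM on vehicle and 177 ± 112 CPM on NR, with every NR mouse above every vehicle mouse, and edgeR did not call it (log2FC, 1.83 ± 0.40, adjusted p = 0.558). DESeq2 called it (1.85, adjusted p = 0.00240), as did the fit of all 32 mice (1.84, adjusted p = 0.0359) and edgeR without NR mouse 1 (2.04, adjusted p = 0.0366). *Scnn1a* in the same mice was 79.8 ± 6.65 and 138 ± 31.7 CPM, also without overlap (0.78 ± 0.17, adjusted p = 0.558), and passed under the same 3 changes (0.79 to 0.92, adjusted p = 0.0161, 0.0129 and 0.0261). In Alport females *Sgk1* was 145 ± 59.5 and 188 ± 108 CPM (0.38 ± 0.38, adjusted p = 0.632). The NR effect on *Sgk1* was not called as different between genotypes (Alport minus control, 0.28 ± 0.58 in males and −0.41 ± 0.48 in females, adjusted p = 0.910 and 0.817). In control mice *Sgk1* was the 1 gene of 17 on the aldosterone-responsive list called higher in each sex, with 0 called lower in males and 1 in females (*Slc12a3*, the thiazide-sensitive cotransporter, named after its value was seen). Over all genes 3.07% were higher and 1.46% lower in males, and 3.91% and 2.27% in females. In control males the summed proximal tubule markers were 25690–27600 CPM on vehicle and 17280–24740 CPM on NR, and 4 of 11 mural and fibroblast markers (*Pdgfrb*, *Pdgfra*, *Tagln* and *Col1a2*) were higher on NR. Endothelial markers were higher on NR for 8 of 10 and summed to 458–509 CPM on vehicle and 662–917 CPM on NR, without overlap, and 2 of 8 immune markers tested (*C1qa* and *C1qb*) were higher. The part of these shifts in the *Agt*, *Ace* and *Sgk1* values was not tested.

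Whether the NR effect differed between genotypes was tested directly. For *Agt* the difference (Alport minus control) was −1.16 ± 0.30 in females and −0.95 ± 0.46 in males on the log2 scale, with unadjusted p of 0.00107 and 0.0536 and adjusted p of 0.376 and 0.573. It passed in females only without Alport NR mouse 1 (−1.38, adjusted p = 0.0435). Without male control NR mice 1 and 3 the male difference for *Agt* was −0.58 (adjusted p = 0.997), and no member was called in this test or in that of sex by NR. No member was called by edgeR, DESeq2 or limma-voom in either sex, and over all genes edgeR called 0.0% in each sex (1398 genes in males and 1521 in females had an unadjusted p under 0.05). Of the members, 2 in females (*Agt* and *Mme*) and 0 in males had an unadjusted p under 0.05.

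**Figure D4:**
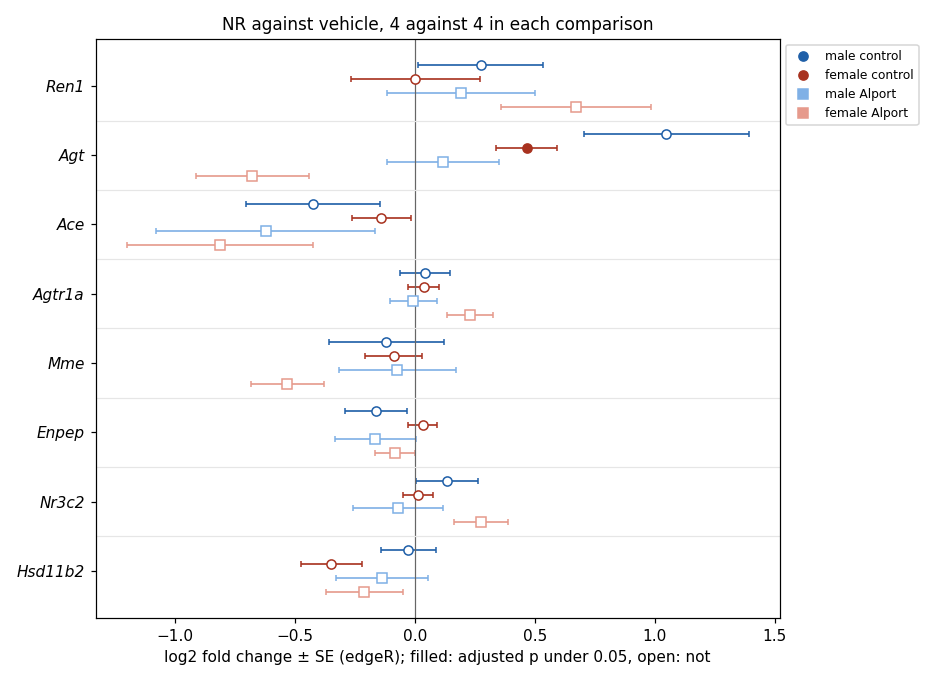
Log2FC ± SE (horizontal axis) of the 8 genes for NR against vehicle, 4 against 4, in control mice (dark circles) and Alport mice (light squares), males in blue and females in red, filled where the adjusted p was under 0.05. *Agt* is right of 0 in control mice of both sexes and at −0.68 in Alport females, and only its value in control females is filled.

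Females were compared with males within each genotype and treatment, using the same mice again. On vehicle, 3 of the 8 genes differed in control mice, beside 31.7% of 14990 genes, and the 2 genes of the aldosterone end were the ones higher in females. *Nr3c2* was 25.8, 22.5, 20.7 and 23.8 CPM in males and 33.5, 32.6, 30.9 and 31.4 CPM in females, with no overlap (log2FC, 0.49 ± 0.08, adjusted p = 0.000764). *Hsd11b2* was 191, 212, 214 and 173 CPM in males and 216, 282, 352 and 273 CPM in females, also without overlap (log2FC, 0.53 ± 0.13, adjusted p = 0.00874). Both calls held with any 1 mouse left out.

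*Enpep* was lower in control females, at 136–152 CPM against 153–198 CPM in males (log2FC, −0.27 ± 0.08, adjusted p = 0.0254). This call was lost without male mouse 1, 2 or 4 or female mouse 2 or 3 (adjusted p = 0.0506–0.0670) and in the fit of all 32 mice (0.0929). *Agtr1a* also separated the sexes, at 34.3–38.8 CPM in females and 39.0–46.9 CPM in males, but was not called (−0.14 ± 0.08, adjusted p = 0.190), so that 4 of the 8 genes did not overlap, beside 32.2% of all genes. *Ren1*, *Agt* and *Ace* were not called (0.33 ± 0.27, 0.23 ± 0.29 and −0.30 ± 0.13, adjusted p = 0.382, 0.579 and 0.0904). Each passed without 1 mouse: *Ren1* without female mouse 3 (0.56, adjusted p = 0.0408), *Agt* without male mouse 3 (0.68, adjusted p = 0.0155) and *Ace* without female mouse 1 (−0.41, adjusted p = 0.0270). *Mme* was 0.24 ± 0.16 (adjusted p = 0.293).

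The sex difference of *Hsd11b2* was also called in vehicle-treated Alport mice, the only member there, beside 3.84% of 15791 genes. It was 140.3, 149, 157 and 170.5 CPM in males and 197, 245, 198 and 253 CPM in females, with no overlap, as for 12.2% of all genes (log2FC, 0.53 ± 0.11, adjusted p = 0.0293). The call was lost without male mouse 1 or 2 or female mouse 2 or 4 (adjusted p = 0.0537–0.102). *Nr3c2* there was 18.2, 13.6, 19.97 and 16.99 CPM in males and 20.4, 22.6, 19.4 and 20.7 CPM in females, overlapping and not called (0.27 ± 0.12, adjusted p = 0.242). *Ace* was −0.67 ± 0.27 (adjusted p = 0.206), and −1.04 without female mouse 2 (adjusted p = 0.0130).

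On NR, edgeR, DESeq2 and limma-voom called 0 of the 8 genes between the sexes in control mice (edgeR, 2.71% of 14668 genes) and in Alport mice (0.0846% of 15369 genes). An unadjusted p under 0.05 was found for 1 member in each, beside 16.1% and 5.47% of all genes. That member was *Nr3c2* in both. In control NR mice it was 21.7, 21.3, 29.1 and 29.1 CPM in males and 31.5, 33.0, 32.2 and 33.7 CPM in females (0.38 ± 0.12, adjusted p = 0.139; 0.39 without male mice 1 and 3, adjusted p = 0.116). In Alport NR mice it was 12.5, 18.9, 14.7 and 19.9 CPM in males and 24.8, 20.4, 27.6 and 27.2 CPM in females (0.60 ± 0.18, adjusted p = 0.630), and the fit of all 32 mice called it (adjusted p = 0.0136). The groups did not overlap in either, beside 10.7% and 3.69% of all genes. Without male mice 1 and 3, the other members in control NR mice moved but were not called (edgeR adjusted p = 0.116–0.951). *Ren1* went from 0.07 to 0.63, *Ace* from −0.01 to −0.47, *Enpep* from −0.07 to −0.25 and *Mme* from 0.27 to −0.04. *Agt* went from −0.35 to 0.02, *Agtr1a* from −0.14 to −0.025 and *Hsd11b2* from 0.22 to 0.15. Over the 4 settings the median *Nr3c2* level was thus higher in females each time, and the ranges overlapped only in vehicle-treated Alport mice. The test of a sex-by-NR difference in control mice called 0 members with edgeR, DESeq2 and limma-voom, beside 0.683% of all genes, and 0 members had an unadjusted p under 0.05.

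**Figure D5:**
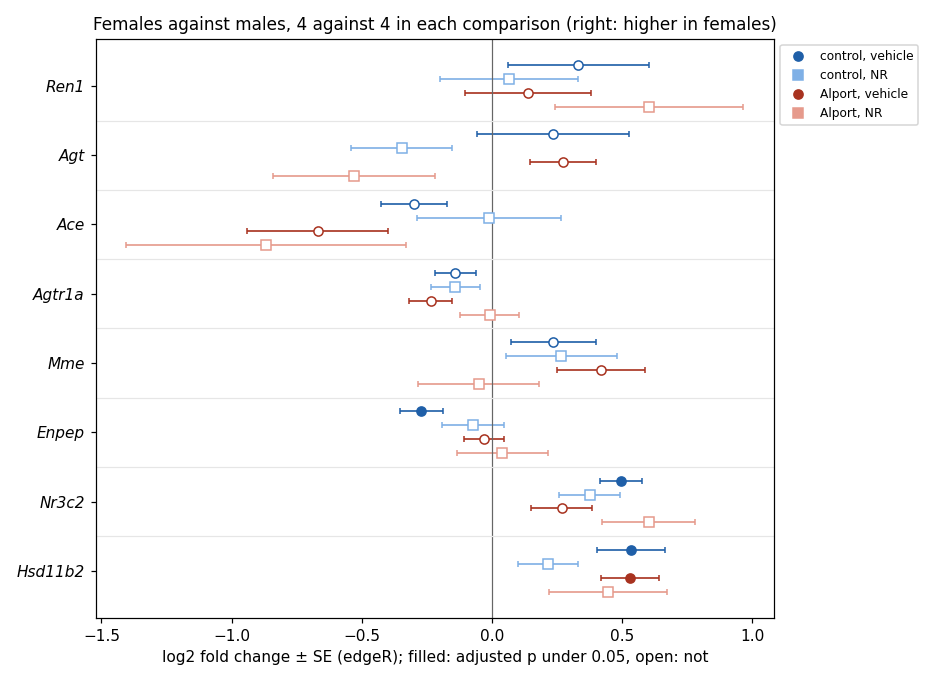
Log2FC ± SE (horizontal axis, positive where higher in females) of the 8 genes for females against males, 4 against 4, in control (blue) and Alport (red) mice on vehicle (dark circles) and NR (light squares), filled where the adjusted p was under 0.05. *Nr3c2* and *Hsd11b2* lie right of 0 in all 4 settings, from 0.27 to 0.60 and from 0.22 to 0.53.

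Other genes near the aldosterone end differed between the sexes in the same direction. In vehicle-treated control mice 13 of 17 aldosterone-responsive genes were higher in females and 1, *Fkbp5*, lower (over all genes, 15.9% higher and 15.8% lower), with a median log2FC of 0.40. *Sgk1* was 48.4 ± 17.5 CPM in males and 174 ± 62.4 CPM in females (log2FC, 1.87 ± 0.27, adjusted p = 0.000409). *Scnn1a*, *Scnn1b* and *Scnn1g* were higher in females by 0.58 ± 0.11, 0.52 ± 0.06 and 0.46 ± 0.11 (adjusted p = 0.00160, 7.31e-05 and 0.00755), and without overlap. *Hsd11b1*, whose product works in the reverse direction to that of *Hsd11b2*, was lower in females, at 24.5 ± 4.67 CPM against 49.5 ± 13.7 CPM (log2FC, −0.99 ± 0.18, adjusted p = 0.00160), and was also lower on NR (−0.64 ± 0.10, adjusted p = 0.0106, and −0.59 without male mice 1 and 3, adjusted p = 0.0272). Of the 12 distal nephron markers 4 were higher in these females (*Trpm6*, *Avpr2*, *Gata3* and *Slc4a1*), with a summed level of 4888–6001 CPM against 3876–5331 CPM in males. Podocyte markers (8 of 10) and mural and fibroblast markers (9 of 11) were higher as well, and the part of these shifts was not tested.

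On the angiotensin side, 0 of 12 processing genes were higher and 5 lower in vehicle-treated control females (over all genes, 15.9% higher and 15.8% lower). *Prcp*, a carboxypeptidase that converts angiotensin II to angiotensin-(1–7), went from 77.6 ± 8.88 CPM in males to 42.1 ± 2.29 CPM in females (log2FC, −0.86 ± 0.08, adjusted p = 2.48e-05). *Nln* was lower by 0.35 ± 0.07 on the log2 scale (adjusted p = 0.00191) and *Agtrap* by 0.29 ± 0.07 (adjusted p = 0.0111). *Mas1* was 0.919 ± 0.269 CPM in males and 0.382 ± 0.199 CPM in females (log2FC, −1.26 ± 0.43, adjusted p = 0.0437), a call lost without male mouse 1, 2 or 4 or female mouse 2 or 3 (adjusted p = 0.0725–0.124).

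Within groups, the members did not vary as a block. Over the 32 mice, each expressed as its deviation from the mean of its own group on the log2 scale, Pearson's r was highest for *Ace* with *Enpep* (0.68), *Ace* with *Mme* (0.64), *Ace* with *Hsd11b2* (0.57) and *Mme* with *Enpep* (0.55), and lowest for *Agt* with *Enpep* (−0.42). *Ren1* gave 0.45 with *Agtr1a* and −0.36 with *Agt*, and *Nr3c2* with *Hsd11b2* gave 0.001. These coefficients are descriptions over mice that share group, depth and tissue composition, and the uneven male NR groups enter them. Of 12838 genes compared in the same way, those most like each member were *Abcb9*, *Pgam2* and *Plekhd1* for *Ren1* (r = 0.72–0.79) and *Capg*, *Cldn3* and *Apoa4* for *Agt* (0.81–0.87). For *Ace* they were *C8a*, *Mep1a* and *Bdh1* (0.90–0.93), for *Mme* *Slc23a1*, *Fam107a* and *Wasf3* (0.87–0.90) and for *Enpep* *B3galt5*, *Cckar* and *Sdc2* (0.88–0.89). Lower likeness was found for *Agtr1a*, with *Sdr42e1*, *Rwdd3* and *Hmcn2* (0.62–0.69), and for *Nr3c2*, with *Sdpr*, *Tmem220* and *Bsnd* (0.78–0.79), while *Sumf1*, *Sap30* and *Cys1* came closest to *Hsd11b2* (0.79–0.86).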

How the data were processed

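Kidney cortex RNA of 32 mice (4 per combination of sex, genotype and treatment, each mouse a replicate) was measured by poly(A) RNA-Seq. The authors processed the reads with BioJupies and deposited whole-number counts per gene symbol. The aligner, annotation and strand setting were not given in the sources used here, and the submitters' processing notes name mm10 as the genome. The authors also deposited a log10 table of the same mice, which differed from log10(CPM + 1) of the counts by at most 8.88e-16 and was used for nothing else.

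Each comparison was fitted on its own mice (8, or 16 for an interaction) with edgeR 4.0.16 (genes kept by filterByExpr at 10 counts, TMM factors, then glmQLFit and glmQLFTest) in R 4.3.3, with Benjamini-Hochberg adjustment over all genes tested and a threshold of 0.05. No fold limit was set. Of 32544 genes, 7938 had 0 counts in all mice. SEs were taken as the log2FC over the square root of the F statistic. The fit was tested on simulated counts. Alternatives were DESeq2 1.42.0, limma-voom (limma 3.58.1), an edgeR fit of all 32 mice, RLE size factors, other low-count filters, the replicate number as a block, and each mouse left out. Leaving out male control NR mice 1 and 3 was added after the data were seen. RLE in place of TMM moved the median log2FC of all genes by at most 0.039. Both methods assume that most genes do not change, so this likeness does not test that assumption. The TMM factors were higher in Alport mice on NR too. They were 0.83–0.90 in control and 0.93–1.22 in Alport males, and 0.90–0.95 and 1.03–1.12 in females. Replicates of a group differed beyond sampling noise (over 48 pairs the chi-square was 7.96 or more for each degree of freedom).

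The 8 genes and all lists were chosen with earlier results of these data known. Named genes were the 8 members, the angiotensin processing list, 13 further pathway genes fixed by name, and the 3 genes with the highest within-group r for each member among genes with a mean log2 CPM of at least 1. Cell markers and list genes named beyond these, such as *Slc7a13* and *Fkbp5*, were named after their values were seen. *Col4a3*, *Col4a4* and *Ddx3y* served to check labels. The order of levels per kilobase used merged exons of GENCODE M21. Gene positions and promoters came from RefSeq (GRCm38.p6), where 6 of the 8 genes had 9 promoter entries. Values of 1 gene of the angiotensin processing list are not reported here, though it stays in the counts over that list. The last 50 bases of each entry, beyond the start, were left out.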

Additional observations from a re-analysis of the deposited data

Results flagged for a closer look

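In 64 groups of 4 mice (8 genes in 8 groups), 4 held a mouse whose distance to its nearest neighbour exceeded Dixon's 95% critical value for the share of the group's range. Chance flags about 1 in 20 groups. *Agtr1a* in male control vehicle mouse 2 was the highest of its group, at 46.94 CPM, and without this mouse the male Alport difference on vehicle was −0.17 and not called (adjusted p = 0.0978). *Agtr1a* in male Alport NR mouse 4 was the highest of its group, at 36.68 CPM. *Mme* in female control vehicle mouse 1 was the highest, at 296.3 CPM, and without this mouse the female Alport difference was −0.35 (adjusted p = 0.0537). *Hsd11b2* in female Alport NR mouse 4 was the lowest, at 135.2 CPM. None of the 32 tests of a difference between effects in the 8 genes was called.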

How the results depend on the processing

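Of the 21 calls among the 8 genes over 16 comparisons, 21 were kept with limma-voom, RLE size factors and no low-count filter, 20 with DESeq2, 19 with the replicate block, 18 with at least 10 counts in every mouse and 15 in the fit of all 32 mice. No call changed direction, though none of these settings scaled the counts by library size alone. Of 49 calls of the other named pathway genes in comparisons of 2 groups, 48 were kept with DESeq2, limma-voom and RLE size factors, 45 with no low-count filter, 39 with the replicate block and 36 in the fit of all 32 mice, and 32 held with any 1 mouse left out. For the 8 genes DESeq2 added 3 calls, no low-count filter 1 and the fit of all 32 mice 7. With any 1 mouse left out, 9 calls held throughout and 12 were lost at least once. The number of the 8 genes called in vehicle-treated Alport against control males was 4 with at least 10 counts in every mouse (7 in the report). In NR-treated males it was 1 with DESeq2 and 5 in the fit of all 32 mice, against 0. For NR in Alport females DESeq2 called 1, against 0. In the fit of all 32 mice it was 1 for NR in control males (0), 0 for NR in control females (1), 0 for sex in vehicle-treated Alport mice (1) and 1 for sex in Alport NR mice (0). Leaving out 1 mouse gave 3–6 genes for Alport against control on vehicle in males and 3–6 in females, 0–0 and 2–4 on NR, 0–0 for NR in Alport mice of each sex, 0–1 for NR in control mice of each sex, 2–4 for sex in control vehicle mice, 0–0 in control NR mice, 0–1 in Alport vehicle mice and 0–0 in Alport NR mice. For the differences between effects it gave 0–0 for sex by genotype, 0–0 and 0–1 for NR by genotype in males and females, and 0–0 for sex by NR. In these fits a mouse was left out of a group of 4, so that fewer mice entered the test. The causes of the other changes were not tested.

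For same-numbered mice, r of their deviations ran from −0.27 to 0.46 over 48 pairs and was over 0.1 in 16 of them. No comparison had every pair over 0.1, and the numbers were not taken as pairs. The paper states that treatment groups were balanced across litters, and whether the numbers follow litters was not tested. With the replicate block the calls of *Sgk1* for NR in control males and females were lost (adjusted p = 0.0870 and 0.0751), as were those of *Prep* (0.0519) and *Scnn1g* (0.0536) in vehicle-treated Alport females. The block also lost the calls of *Agtr1a* and *Enpep* in vehicle-treated Alport males (adjusted p = 0.0563 and 0.0568), and 2 genes were called for sex in vehicle-treated Alport mice, with *Ace* added (adjusted p = 0.0495), against 1.

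Counts over all genes moved by more than 1.5 times in several comparisons. With DESeq2 they were 1381 for Alport against control males on NR (edgeR, 0), 62 and 728 for NR in Alport males and females (0 and 75), 1654 and 1493 for NR in control males and females (666 and 924), and 861, 1367 and 97 for sex in control NR, Alport vehicle and Alport NR mice (398, 607 and 13). The differences between effects gave 260, 20, 30 and 504 with DESeq2 for sex by genotype, NR by genotype in males and in females, and sex by NR (86, 0, 0 and 105), and 46 with limma-voom for the first. In the fit of all 32 mice the counts were 4565 for Alport against control males on NR, 88 and 253 for NR in Alport males and females, 18 for NR in control females, and 2799, 375 and 293 for sex in control vehicle, Alport vehicle and Alport NR mice. That fit gave 5, 1, 0 and 7 for the differences between effects. With the block they were 377 for Alport against control males on NR, 309 and 371 for NR in control males and females, 351 and 6 for sex in Alport vehicle and NR mice, and 61 for sex by NR. No low-count filter gave 191 genes for Alport against control males on NR, 116 for NR in Alport females and 3 for NR by genotype in females, at least 10 counts in every mouse gave 8 for sex in Alport NR mice, and RLE size factors gave 52 for sex by genotype. Without male control NR mice 1 and 3 the counts were 1 for Alport against control males on NR, 96 for NR in control males, 880 for sex in control NR mice and 6 for sex by NR. The 8 genes had at least 325 counts in each library.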
